A study of Mus musculus with 6 samples.

Results

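The expression of 10 circadian clock genes was examined in subcutaneous inguinal white fat (iWAT) of mice that carry an *Hlx* transgene and of their wild-type littermates. The genes are the activators *Arntl*, *Clock* and *Npas2*, the repressors *Per1*, *Per2*, *Per3* and *Cry1*, the nuclear receptors *Nr1d1* and *Nr1d2*, and the output factor *Dbp*. They were chosen by symbol, and all 10 were found among the 19445 rows of the expression table, each on a row of its own. All 10 were also among the 11692 loci that had a mean over 1 FPKM in at least 1 genotype and were tested. FPKM counts the reads of a gene per length of its transcript and relative to all mapped reads, so levels of different genes can be set side by side.

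RNA-Seq was performed on 1 library from each of 3 transgenic and 3 wild-type mice, labelled male and 12 weeks old, with no treatment. In the transgenic mice the *Hlx* cDNA was fused behind the fat-selective *aP2* (*Fabp4*) promoter, so that *Hlx*, a homeobox transcription factor, is expressed from it in fat. The line was made in C57BL/6 × SJL embryos and backcrossed to C57BL/6. The time of day at which the tissue was taken is not given in the sources used here.

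The molecular clock is a feedback loop in transcription. ARNTL (BMAL1) pairs with CLOCK or its relative NPAS2 and binds E-box sequences, which switches on *Per*, *Cry*, *Nr1d1*, *Nr1d2* and *Dbp*. PER and CRY proteins then block the activators, while the receptors REV-ERBα (*Nr1d1*) and REV-ERBβ (*Nr1d2*) repress *Arntl* and *Npas2* through ROR elements, and DBP acts on D-boxes. The mRNA of most of these genes rises and falls over the day in fat, with *Arntl* and *Npas2* on one side of the cycle and *Dbp*, *Nr1d1* and *Per* genes on the other, so a level at a single time depends on when the sample was taken.

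*Hlx* lay between 79.6 and 109.7 FPKM in the transgenic and between 6.88 and 8.14 FPKM in the wild-type mice, which matches the labelled genotypes. The row does not separate the transgene from the mouse gene. *Xist*, the RNA that coats the silenced X chromosome in female cells, lay between 20.2 and 33.6 FPKM in all 6 libraries, and the 28 Y-linked loci in the table had a value of 0 in each, so the expression goes against the label male in all 6 libraries of both genotypes. The adipocyte gene *Fabp4* was the most abundant marker, at 19297 to 29363 FPKM. Skeletal muscle markers differed between mice, with a summed level over 7 genes of 558 FPKM in transgenic mouse 2, against 75.7 and 106 FPKM in the other transgenic mice and 5.02 to 109.8 FPKM in the wild-type mice. The sequencing depth is not stated, but the steps between values under 0.3 FPKM gave depths of 0.692 to 1.41 relative to wild-type mouse 3, read from 12.7 to 15.8% of those values. The limma p-values below set the difference between genotypes against the spread of these 6 mice within their genotypes, moderated over all tested loci.

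The sequences below are stretches of the members' promoters in which a clock motif was found. They are taken from RefSeq windows that run from 250 bases before to 50 bases after a start site (GRCm38.p6), which were given for 9 of the 10 genes in 13 windows. *Per2* had none. The motifs were searched on both strands and were the E-box CACGTG, its variant CACGTT, the D-box as TTATGTAA or TTACGTAA, the ROR element core TAGGTCA, and the cAMP response element TGACGTCA, of which none overlaps another in the hits shown. Capitals mark the motifs, which for the E-box variant are read on the other strand, and each stretch holds up to 60 bases to either side.
*Cry1*, chr10:85185049-85185193, minus strand: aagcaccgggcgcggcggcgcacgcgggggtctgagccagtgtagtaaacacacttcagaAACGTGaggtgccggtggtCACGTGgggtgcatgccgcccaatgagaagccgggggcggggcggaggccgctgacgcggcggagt
*Per1*, chr11:69098723-69098848, plus strand: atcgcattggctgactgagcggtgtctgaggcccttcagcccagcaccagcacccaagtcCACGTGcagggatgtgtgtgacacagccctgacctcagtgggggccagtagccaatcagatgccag
*Nr1d1*, chr11:98775340-98775465, minus strand: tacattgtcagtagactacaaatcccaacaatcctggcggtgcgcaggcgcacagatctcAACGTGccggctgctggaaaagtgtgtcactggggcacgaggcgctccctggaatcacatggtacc
*Per3*, chr4:151044756-151044915, minus strand: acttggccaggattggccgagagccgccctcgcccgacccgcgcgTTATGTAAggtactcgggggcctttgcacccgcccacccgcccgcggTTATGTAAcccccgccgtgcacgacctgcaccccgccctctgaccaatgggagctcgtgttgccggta
*Arntl*, chr7:113207481-113207560, plus strand: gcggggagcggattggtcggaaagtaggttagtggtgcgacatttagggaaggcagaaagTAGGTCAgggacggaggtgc

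*Cry1* holds both forms of the E-box, 60 and 79 bases before the start site, *Per1* holds an E-box 166 bases before it, and *Nr1d1* holds the variant 28 bases before it. The E-box is present in 7.15% and the variant in 4.68% of all 32851 windows. *Per3* holds a pair of D-boxes, 205 and 158 bases before the start site, and a D-box occurs in 1.06% of all windows. *Arntl* holds the ROR element core 30 bases after the start site of its second window, a motif present in 2.61% of all windows. The cAMP response element, found in 1.79% of all windows, was in none of the members' windows. Of the 9 genes with windows, 2 held the E-box and 2 the variant. The windows of *Clock*, *Npas2*, *Nr1d2* and *Dbp* held none of the motifs searched. These are matches of letters and say nothing of binding.

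None of the 10 clock genes passed the test between genotypes at an adjusted p under 0.05 (limma, Benjamini-Hochberg adjustment over all tested loci), while 18.6% of all tested loci did, 11.6% as higher and 7.03% as lower in the transgenic mice. At an unadjusted p under 0.05, 3 members were found, namely *Cry1*, *Nr1d1* and *Dbp*, against 36.2% of all tested loci, so this share is no larger than the background. The values of the genotypes did not overlap for 4 members, with *Cry1*, *Nr1d1* and *Dbp* above and *Per1* below the wild-type range. This is a share close to the background, since the genotypes did not overlap at 42.9% of all tested loci. The median log2 fold change of the members was 0.12, with 6 of 10 above 0, against a median of -0.01 over all tested loci. As these are bulk samples, more cells of a type and more RNA per cell cannot be told apart.

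**Figure D1:**
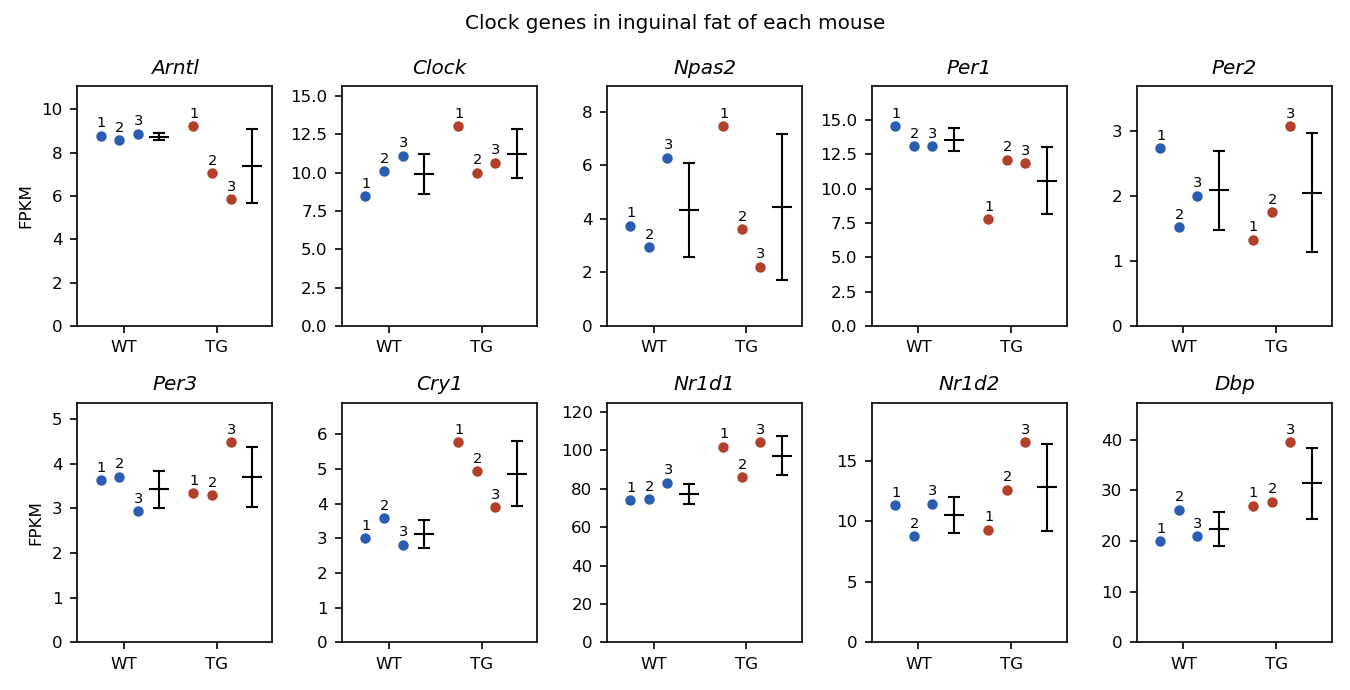
FPKM of the 10 clock genes in each mouse, with wild-type (WT) mice in blue, transgenic (TG) mice in red and the mouse number above each point. Bars show the mean and SD of 3 mice, and each axis starts at 0. The genotypes do not overlap for *Per1*, *Cry1*, *Nr1d1* and *Dbp*, and the transgenic mice are spread widely for *Npas2* and *Per2*.

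No direction was established for the activators, as the confidence interval of each included 0. *Arntl* (chr7:113207465-113314126, plus strand, GRCm38), the obligate partner of the activator complex, was at 9.23, 7.04 and 5.84 FPKM in transgenic mice 1, 2 and 3, and at 8.79, 8.56 and 8.87 FPKM in wild-type mice 1, 2 and 3. The wild-type mice lay close together, with a mean of 8.74 ± 0.159 FPKM (SD, n = 3), while the transgenic mice lay on both sides of them with a mean of 7.37 ± 1.72 FPKM. The log2 fold change was -0.24 (95% confidence interval -0.58 to 0.10, adjusted p = 0.274, limma). It was -0.39 (adjusted p = 0.0548) without transgenic mouse 1 and -0.10 (adjusted p = 0.601) without transgenic mouse 3.

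*Clock* (chr5:76209868-76304792, minus strand) was at 13.0, 9.99 and 10.6 FPKM in the transgenic and at 8.48, 10.1 and 11.1 FPKM in the wild-type mice, in the same order of mice. Transgenic mouse 1 was the highest of all and the remaining values overlapped, with a log2 fold change of 0.17 (interval -0.14 to 0.47, adjusted p = 0.390, limma), which came to 0.061 without transgenic mouse 1 and to 0.068 without wild-type mouse 1. Its relative *Npas2* (chr1:39193731-39363236, plus strand) was at 7.47, 3.61 and 2.21 FPKM in the transgenic and at 3.75, 2.94 and 6.29 FPKM in the wild-type mice. The highest and the lowest value of *Npas2* were both from transgenic mice and differed 3.38-fold, and the wild-type mice differed 2.14-fold. Its residual SD was larger than that of 98.0% of all tested loci, so the log2 fold change of -0.04 had an interval from -0.92 to 0.84 (adjusted p = 0.949, limma), which leaves room for a change in either direction.

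Among the repressors, *Per1* and *Cry1* stood on opposite sides of the wild-type values. *Per1* (chr11:69095217-69109960, plus strand), a repressor that also responds quickly to outside signals, was at 7.80, 12.1 and 11.9 FPKM in the transgenic and at 14.6, 13.1 and 13.1 FPKM in the wild-type mice. All transgenic values were below the wild-type values, by the widest margin in mouse 1, but the log2 fold change of -0.35 did not pass the test (interval -0.73 to 0.02, adjusted p = 0.159, limma). Without transgenic mouse 1 it was -0.17 (adjusted p = 0.250). An exact permutation test gave p = 0.1, the smallest that 3 against 3 mice allow, for each of the 4 members whose genotypes did not overlap (two-sided, 20 arrangements).

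*Cry1* (chr10:85131700-85185064, minus strand), the strongest repressor of the activator complex, was at 5.76, 4.93 and 3.89 FPKM in the transgenic and at 3.00, 3.58 and 2.81 FPKM in the wild-type mice. All transgenic mice were above all wild-type mice, and the means were 4.86 ± 0.936 and 3.13 ± 0.397 FPKM (SD, n = 3 each), a ratio of 1.55. The log2 fold change was 0.50 (interval 0.16 to 0.83), with an adjusted p of 0.0507 (limma) that lay just outside the threshold. It came to 0.0379 without transgenic mouse 3, to 0.0490 with a pseudocount of 0.1 and to 0.0479 after quantile normalization, and ranged from 0.0379 to 0.147 over the 14 alternative settings.

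*Per2* and *Per3* gave overlapping values. *Per2* (chr1:91415982-91459324, minus strand), a core repressor, was the lowest member, at 1.33, 1.75 and 3.08 FPKM in the transgenic and at 2.74, 1.52 and 2.01 FPKM in the wild-type mice. Here too the highest and the lowest mouse were both transgenic. The log2 fold change was -0.04 (interval -0.60 to 0.52, adjusted p = 0.921, limma), and its sign turned in 4 of the 14 alternative settings. *Per3* (chr4:151003652-151044665, minus strand), which is not required for the core loop, was at 3.34, 3.29 and 4.47 FPKM in the transgenic and at 3.63, 3.71 and 2.94 FPKM in the wild-type mice. Its log2 fold change was 0.08 (interval -0.23 to 0.39, adjusted p = 0.683, limma), and leaving out a single mouse gave values from -0.032 without transgenic mouse 3 to 0.14 without transgenic mouse 2.

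*Nr1d1* (chr11:98767932-98775333, minus strand) was the most abundant member, at 102, 85.8 and 104 FPKM in the transgenic and at 74.0, 74.3 and 83.1 FPKM in the wild-type mice. All transgenic mice were above all wild-type mice, though transgenic mouse 2 exceeded wild-type mouse 3 only narrowly, and the means were 97.2 ± 9.92 and 77.1 ± 5.19 FPKM (SD, n = 3 each). The log2 fold change was 0.33 (interval 0.08 to 0.57, adjusted p = 0.0697, limma), and the adjusted p was 0.0367 without transgenic mouse 2 and between 0.0367 and 0.212 over the 14 alternative settings. *Nr1d1* shares 263 of its 3077 exon bases with *Thra*, a thyroid hormone receptor gene on the opposite strand, and the kit does not mark strand, so reads from these bases cannot be assigned to either gene. *Thra* was at 61.7, 47.6 and 43.3 FPKM in the transgenic and at 49.4, 52.9 and 45.1 FPKM in the wild-type mice, a log2 fold change of 0.04 (limma, adjusted p = 0.875).

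*Nr1d2* (chr14:18204054-18239127, minus strand), the second REV-ERB receptor, was far less abundant, at 9.31, 12.6 and 16.5 FPKM in the transgenic and at 11.3, 8.80 and 11.5 FPKM in the wild-type mice. The genotypes overlapped, and transgenic mouse 3 was the highest. The log2 fold change was 0.24 (interval -0.23 to 0.70, adjusted p = 0.420, limma). It was 0.43 without transgenic mouse 1, 0.048 without transgenic mouse 3 and 0.12 without wild-type mouse 2.

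*Dbp* (chr7:45705088-45710203, plus strand), a PAR bZIP factor and a direct output of the activators, was the second most abundant member. It was at 27.0, 27.8 and 39.5 FPKM in the transgenic and at 19.9, 26.2 and 21.0 FPKM in the wild-type mice. The lowest transgenic mouse was just above the highest wild-type mouse. The means were 31.4 ± 6.99 and 22.4 ± 3.37 FPKM (SD, n = 3 each) and the log2 fold change was 0.46 (interval 0.06 to 0.86, adjusted p = 0.0988, limma), with no call in any of the 14 alternative settings and a value of 0.29 without transgenic mouse 3. *Dbp* shares 539 of its 2993 exon bases with *Sphk2*, a sphingosine kinase gene on the opposite strand, which was at 10.3, 10.8 and 8.56 FPKM in the transgenic and at 12.4, 13.6 and 12.1 FPKM in the wild-type mice (log2 fold change -0.34, adjusted p = 0.0588, limma). A shared row of *Rpl18* and *Sphk2* also overlaps the *Dbp* locus. It was at 89.4, 77.2 and 66.6 FPKM in the transgenic and at 67.3, 74.6 and 65.9 FPKM in the wild-type mice (0.16, adjusted p = 0.383, limma). As for *Nr1d1*, reads from shared bases cannot be assigned to either gene.

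**Figure D2:**
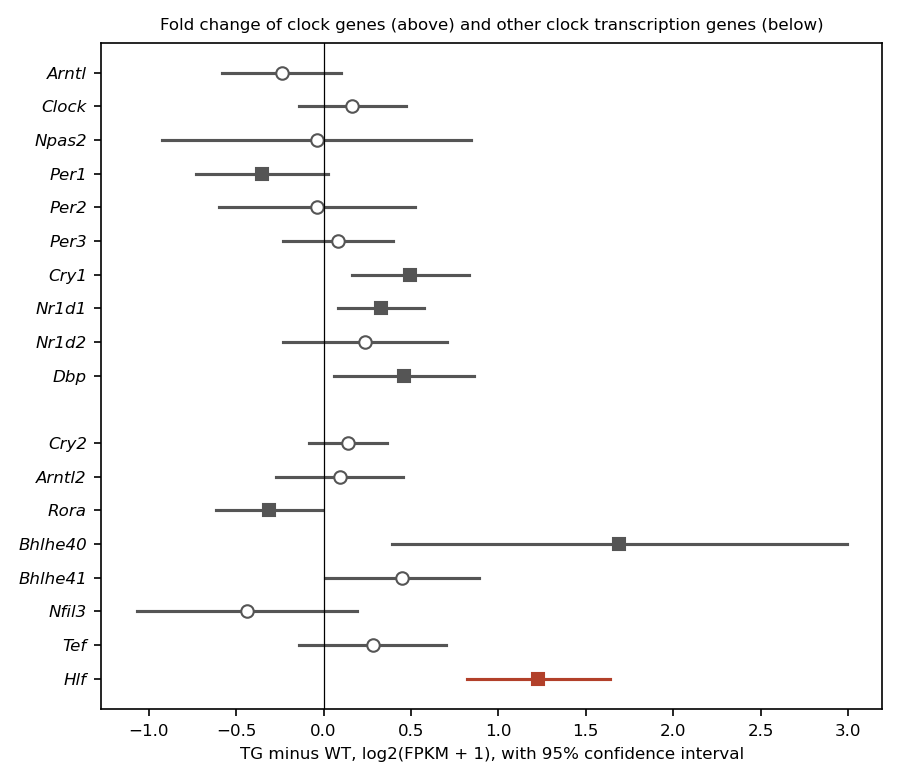
Difference between transgenic and wild-type mice in log2(FPKM + 1) with its 95% confidence interval, for the 10 clock genes and for the other clock transcription genes that were tested. Red marks an adjusted p under 0.05 and filled squares mark genotypes that do not overlap. No clock gene is red, and of the other genes shown *Hlf* is.

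In order of mean level over all mice, *Nr1d1* was followed by *Dbp*, *Per1*, *Nr1d2*, *Clock*, *Arntl*, *Npas2*, *Cry1*, *Per3* and *Per2*. From *Per1* downwards, the values of each gene overlapped those of the next. *Nr1d1* and *Dbp* did not overlap each other or any other member. Within a library, *Nr1d1* was 6.30 to 10.9 times as abundant as *Nr1d2* in the transgenic and 6.53 to 8.44 times in the wild-type mice.

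The transgenic mice differed among themselves in most members, and the order of the mice is given as a description, as it was noticed in these values. *Arntl*, *Npas2* and *Cry1* were highest in transgenic mouse 1 and lowest in mouse 3, whereas *Per2*, *Nr1d2* and *Dbp* were highest in mouse 3 and lowest in mouse 1. Among all tested loci, 19.6% had the first order and 14.8% the second. The difference between mice 1 and 3 was larger than that of 99.2% of all tested loci for *Npas2*, and larger than that of 96.8% for *Per2* and of 96.4% for *Nr1d2*. *Nr1d1* differed little between these mice, at 102 and 104 FPKM.

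Ratios within a library do not depend on scaling between libraries, but they restate values given above. The ratio of *Npas2* to *Per2* was 5.62, 2.06 and 0.717 in the transgenic and 1.37, 1.93 and 3.13 in the wild-type mice, so the transgenic range enclosed the wild-type range. The ratio of *Arntl* to *Dbp* was 0.342, 0.254 and 0.148 in the transgenic and 0.441, 0.327 and 0.422 in the wild-type mice, and transgenic mouse 1 overlapped the latter. The ratio of *Cry1* to *Per1* was 0.739, 0.407 and 0.328 in the transgenic and 0.206, 0.273 and 0.215 in the wild-type mice, and the genotypes did not overlap. As *Cry1* lay above and *Per1* below the wild-type range, their ratio could not overlap. The other ratios divide a gene highest in transgenic mouse 1 by one highest in transgenic mouse 3, so their order among the transgenic mice was fixed as well. All pairs were picked with the values known and were not tested.

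**Figure D3:**
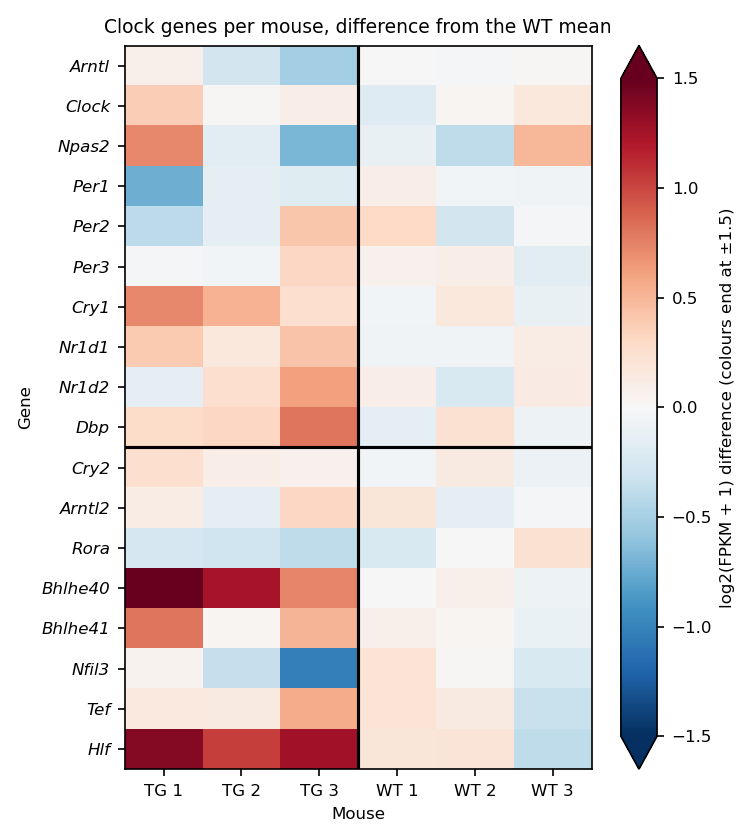
Difference of each mouse from the wild-type mean in log2(FPKM + 1), for the clock genes (above the line) and other clock transcription genes (below), with red for higher and blue for lower. In transgenic mouse 1 *Npas2* and *Cry1* are high and *Per1* and *Per2* low, and in transgenic mouse 3 *Npas2* and *Arntl* are low and *Per2*, *Nr1d2* and *Dbp* high.

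Other measures also separated transgenic mice 1 and 3. The summed level of 6 epithelial markers was 120, 170 and 240 FPKM in transgenic mice 1, 2 and 3 and 274, 231 and 207 FPKM in wild-type mice 1, 2 and 3, and *Epcam*, a surface protein of epithelia, was at 10.1, 16.7 and 34.9 FPKM in the transgenic mice. *Fkbp5*, which responds to glucocorticoids, was at 4.45, 6.47 and 10.8 FPKM in the transgenic and at 14.8, 6.71 and 14.2 FPKM in the wild-type mice. *Fkbp5* and *Epcam* were picked with their values known. Other glucocorticoid-responsive genes did not have this order. *Cebpd* was at 7.24, 8.60 and 6.56 FPKM and *Errfi1* at 10.4, 13.9 and 10.6 FPKM in transgenic mice 1, 2 and 3. The part of these measures in the spread of the clock genes was not tested.

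Of 10 other clock transcription genes, 9 had a row of their own and 8 were tested, of which 1 was higher and none lower in the transgenic mice, against 11.6% and 7.03% of all tested loci. The one that rose was *Hlf*, a PAR bZIP factor related to *Dbp*. *Hlf* was at 19.9, 15.6 and 18.3 FPKM in the transgenic and at 8.11, 8.22 and 5.19 FPKM in the wild-type mice, with a log2 fold change of 1.23 (SE 0.17, adjusted p = 0.00468, limma), and it was called in all 13 alternative settings. The genotypes were far apart. *Tef*, the third PAR bZIP factor, overlapped between the genotypes, with means of 22.5 ± 4.14 FPKM in the transgenic and 18.4 ± 3.68 FPKM in the wild-type mice (SD, n = 3 each, log2 fold change 0.28, adjusted p = 0.294, limma). The ratio of *Dbp* to *Hlf* was accordingly 1.36, 1.78 and 2.16 in the transgenic and 2.46, 3.19 and 4.05 in the wild-type mice. *Nfil3*, a repressor at D-boxes, was at 6.48, 4.63 and 2.53 FPKM in the transgenic and at 7.31, 6.28 and 5.13 FPKM in the wild-type mice (log2 fold change -0.44, adjusted p = 0.275, limma).

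*Bhlhe40* and *Bhlhe41* encode DEC1 and DEC2, repressors that compete for E-boxes. *Bhlhe40* was at 189.8, 51.0 and 35.7 FPKM in the transgenic and at 21.1, 22.4 and 19.9 FPKM in the wild-type mice. All transgenic mice were above the wild-type mice and mouse 1 stood far above the others, so the log2 fold change of 1.69 came with an SE of 0.55 and an adjusted p of 0.0738 (limma). Without transgenic mouse 1 it was 0.98 with an adjusted p of 0.0147, and without transgenic mouse 3 it was 2.17 with an adjusted p of 0.0494. *Bhlhe41* was at 23.5, 13.3 and 19.0 FPKM in the transgenic and at 13.8, 13.3 and 12.0 FPKM in the wild-type mice (log2 fold change 0.45, adjusted p = 0.132, limma), and without transgenic mouse 2 its adjusted p was 0.0184.

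The ROR receptors activate the elements that REV-ERB proteins repress. *Rora* was at 3.91, 3.74 and 3.46 FPKM in the transgenic and at 3.98, 4.80 and 5.85 FPKM in the wild-type mice, which do not overlap (log2 fold change -0.31, adjusted p = 0.132, limma). *Rorb*, at 0.0688 to 0.141 FPKM, was below the filter. *Cry2*, the second cryptochrome, differed by 0.14 on the log2 scale (adjusted p = 0.320, limma) and *Arntl2*, a relative of *Arntl*, by 0.09 (adjusted p = 0.699, limma). *Ciart* was not matched to a row.

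The clock is also set by enzymes that modify its proteins. Of 19 kinases, ligases and corepressors tested, 3 rose and 1 fell in the transgenic mice, against 11.6% and 7.03% of all tested loci, and the median log2 fold change was 0.05. *Prkaa1*, a catalytic subunit of AMPK, was at 8.14, 9.28 and 8.99 FPKM in the transgenic and at 14.8, 16.5 and 14.7 FPKM in the wild-type mice (log2 fold change -0.74, adjusted p = 0.00225, limma). The other catalytic subunit, *Prkaa2*, went the other way, at 3.96, 4.22 and 4.59 against 2.83, 3.15 and 2.41 FPKM (log2 fold change 0.47, adjusted p = 0.0256, limma). *Csnk2a1*, a subunit of casein kinase 2, rose by 0.41 on the log2 scale (adjusted p = 0.0283, limma), and *Fbxl21*, a ligase subunit that acts on CRY proteins, by 0.67 (adjusted p = 0.0433, limma) from a wild-type level under 1 FPKM. *Fbxl21* had 2 rows, and the one used had means of 1.57 FPKM in the transgenic and 0.639 FPKM in the wild-type mice. *Fbxl21* passed the filter through the transgenic mice only, so it was tested because it was high there. The casein kinase 1 genes *Csnk1d* and *Csnk1e*, which phosphorylate PER proteins, differed by 0.02 and -0.18 on the log2 scale (adjusted p = 0.881 and 0.201, limma). The calls of higher genes in this list came to 0 without transgenic mouse 3 or wild-type mouse 3 and to 1 without any other mouse, whereas *Prkaa1* was called each time.

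All 7 clock output genes had genotypes that did not overlap, as 42.9% of all tested loci had, and 3 rose and 1 fell, against 11.6% and 7.03% of all tested loci. *Nampt*, the rate-limiting enzyme of NAD+ salvage, was at 51.5, 41.6 and 46.4 FPKM in the transgenic and at 38.4, 27.7 and 29.1 FPKM in the wild-type mice (log2 fold change 0.55, adjusted p = 0.0386, limma). *Coq10b* rose by 0.48 (adjusted p = 0.0188, limma) and *Tspan4* by 0.47 (adjusted p = 0.0457, limma) on the log2 scale. *Tsc22d3*, which encodes the glucocorticoid-induced protein GILZ, fell from 49.2, 61.9 and 47.9 FPKM to 24.5, 26.7 and 32.6 FPKM (log2 fold change -0.90, adjusted p = 0.00696, limma). *Usp2* and *Wee1* were above the wild-type range without passing the test (adjusted p = 0.0569 and 0.0559, limma). None of the 3 calls of higher genes was made when transgenic mouse 3, wild-type mouse 2 or wild-type mouse 3 was left out.

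**Figure D4:**
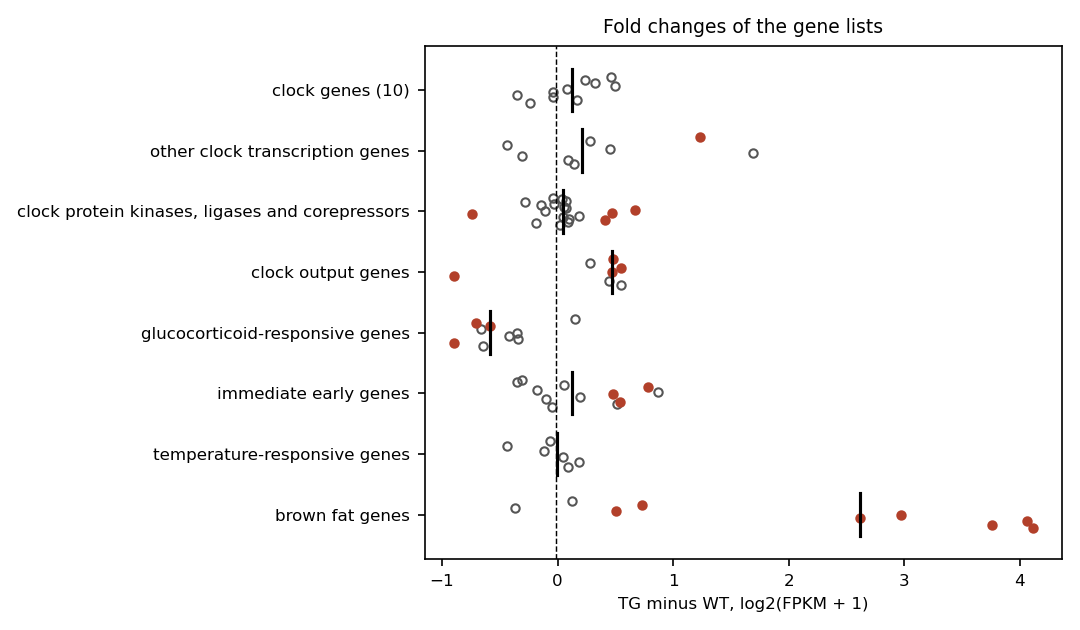
Difference between genotypes in log2(FPKM + 1) for each tested gene of the clock lists and of the lists of genes that respond to outside signals or mark brown fat. Filled points have an adjusted p under 0.05, the short vertical lines are medians and the dashed line is the median of all tested loci. The clock genes hold no filled point, and 7 of the 9 tested brown fat genes do. Of all tested loci, 18.6% have an adjusted p under 0.05 (limma).

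Lists of genes that respond to signals known to reset or drive clock genes were also examined. These give RNA levels of the bulk tissue, and the signals themselves were not measured. Of 9 glucocorticoid-responsive genes, 3 fell and none rose, against 7.03% lower and 11.6% higher among all tested loci. Those that fell were *Tsc22d3*, which is also on the output list, *Cebpd* (log2 fold change -0.70, adjusted p = 0.00756, limma) and *Errfi1* (-0.59, adjusted p = 0.0402, limma). The list's median log2 fold change was -0.59, against -0.01 over all tested loci. Leaving out a single mouse gave 2 to 4 calls, with 2 without transgenic mouse 1 or wild-type mouse 1. Of 12 immediate early genes, which answer acute stimulation, 3 rose and none fell, against 11.6% and 7.03% of all tested loci, and the median was 0.13. Those that rose were *Jun*, *Egr2* and *Atf3*, by 0.54, 0.48 and 0.78 on the log2 scale. None of these was called without wild-type mouse 2, and 1 was called without transgenic mouse 3, wild-type mouse 1 or wild-type mouse 3 or without the filter. An immediate early gene was called lower without transgenic mouse 2 and without wild-type mouse 1, 1 each time. None of the 6 tested temperature-responsive genes passed the test. At an unadjusted p under 0.05 (limma) 1 was found, against 36.2% of all tested loci, namely *Cirbp*, an RNA-binding protein induced by mild cold, at 30.2, 20.4 and 19.4 FPKM in the transgenic and 30.6, 31.6 and 32.1 FPKM in the wild-type mice. Transgenic mouse 1 lay just below the wild-type mice, and without it *Cirbp* was called lower (log2 fold change -0.63, adjusted p = 0.00652, limma). By comparison, 7 of 9 tested brown fat genes rose, against 11.6% of all tested loci, with a median log2 fold change of 2.61. They were *Ucp1*, the uncoupling protein of brown fat, by 4.12, *Cidea*, *Cox7a1*, *Cox8b*, *Elovl3*, *Prdm16* and *Ppargc1a*, a coactivator that also acts on clock genes, by 0.51. The rest of this list did not rise. *Dio2* and *Ebf2* did not pass the test (log2 fold change -0.37 and 0.13, adjusted p = 0.576 and 0.411, limma), and *Zic1* was below the filter.

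Among markers of cell types in the tissue, most of those of macrophages were called lower in the transgenic mice, and few others passed the test. Of all tested loci, 7.03% were called lower and 11.6% higher. Of 5 macrophage markers *Lyz2*, *Cd68*, *Csf1r* and *Adgre1* fell, and the summed level of all 5 was 343 to 487 FPKM in the transgenic and 727 to 923 FPKM in the wild-type mice. *Lyz2*, the most abundant of them, fell by 1.10 on the log2 scale (adjusted p = 0.00823, limma). Summed lymphocyte markers overlapped between genotypes, at 173 to 264 FPKM in the transgenic and 257 to 376 FPKM in the wild-type mice, and 1 of 7 (*Ms4a1*) fell. All 7 had a log2 fold change below 0, with a median of -0.66, against a median of -0.75 for the macrophage markers. Among 5 endothelial markers *Kdr* rose, with 3 log2 fold changes above 0 and 2 below 0 (median 0.17). Among 6 adipocyte markers *Adipoq* fell, with 3 above 0 and 3 below 0 (median -0.08). No fibroblast, epithelial or muscle marker passed the test. Of the fibroblast markers 1 was above and 5 were below 0. All 6 tested epithelial markers were below 0 (median -0.38) and all 7 tested muscle markers above 0 (median 2.19). The most abundant markers of the latter lists were *Dcn*, at 596 to 974 FPKM, *Krt19*, at 44.3 to 97.8 FPKM, and *Acta1*, at 2.36 to 187 FPKM, and those of lymphocytes and endothelium were *Cd79b* and *Pecam1*. The part of these cells in the levels of the clock genes was not tested.

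The loci whose pattern over the 6 mice was most like that of *Dbp* were *Tcf12* (Pearson r = 0.986 of log2(FPKM + 1)), the shared row of *Mir3062* and *Pfas* (0.981) and *Narf* (0.969). For *Arntl* they were *Ddx23* (0.987), *Top3b* (0.982) and *Meis1* (0.977). These are the closest of 11692 loci over 6 points that share 2 genotypes, and none of the 6 loci passed the test between genotypes.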

How the data were processed

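Total RNA of iWAT was made into TruSeq libraries and sequenced as single-end reads on an Illumina HiSeq instrument. The authors deposited 1 table of FPKM per gene and mouse, and the submitters' processing notes name CASAVA 1.8.2, TopHat2 2.0.9, Bowtie2 2.1.0, Cufflinks 2.2.1 and mm10. The options and the annotation are not given in the sources used here. All 6 columns were used (column sums 466059 to 542096 FPKM), and no count test was run, as reads and counts were not used here.

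Groups came from the sample titles. log2(FPKM + 1) was computed for loci with a mean over 1 FPKM in at least 1 genotype and the genotypes were compared by limma 3.58.1 (R 4.3.3), with a moderated variance that follows the mean level (trend), no covariate, two-sided p-values and a Benjamini-Hochberg adjusted p under 0.05 as the call. On this scale, changes of low genes are understated. The fit was tested on simulated data with 200 changed genes. Single members were also tested with an exact permutation test (scipy 1.17.1). Where a symbol had several rows, the row with the highest mean was taken. A further clock transcription gene, not among the 10 of the list, is not reported here. Rows shared by several symbols were left out of list counts, and *Adgre1* was matched by an older symbol. Gene coordinates and exon overlaps are from GENCODE M21 (GRCm38). Figures were drawn with matplotlib 3.10.9.

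The members, the gene lists and the tests were chosen with earlier results of these data known. All members, all other clock transcription genes, the called genes of the other lists and the most abundant marker of each cell type are named, and for *Dbp* and *Arntl* the 3 loci of highest correlation. *Csnk1d*, *Csnk1e*, *Usp2*, *Wee1*, *Cirbp*, *Fkbp5*, *Epcam*, *Dio2*, *Ebf2* and *Zic1* were named after their values were seen. Alternative settings were another pseudocount, no filter and another filter, quantile normalization, scaling by median ratios, variance moderation without the trend, a replicate block, summed rows for the members, and leaving out each mouse.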

Additional observations from a re-analysis of the deposited data

How the results depend on the processing

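With all 6 mice, 1 clock gene (*Cry1*) was called higher with a pseudocount of 0.1, after quantile normalization and with summed rows, the last through fewer loci tested, and none was called lower in any setting. Leaving out 1 mouse gave 0 to 1 clock genes, 1 to 2 other clock transcription genes, 0 to 1 enzymes and corepressors and 0 to 3 output genes called higher. Without the filter, which adds 7753 loci to the adjustment, 0 enzymes and corepressors and 0 output genes were called higher, and quantile normalization called 2 enzymes and corepressors lower. Over all loci the calls were 748 higher and 381 lower without the filter, and 780 to 1295 higher and 329 to 906 lower without 1 mouse.

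The sign turned for *Npas2* without transgenic mouse 2 (0.020), transgenic mouse 3 (0.28) or wild-type mouse 3 (0.21), with a range of -0.42 to 0.28 without 1 mouse. It turned for *Per2* after quantile normalization (0.012) and without transgenic mouse 1 (0.14), transgenic mouse 2 (0.016) or wild-type mouse 1 (0.11), with a range of -0.27 to 0.14. Without transgenic mouse 3 it turned for *Per3* (-0.032, range to 0.14) and *Arntl2* (-0.018, range to 0.21). None of these values passed the test, and the cause was not tested. *Hlf*, *Prkaa1*, *Tsc22d3*, *Cebpd*, *Cd68*, *Lyz2*, *Ucp1*, *Cidea*, *Cox7a1*, *Cox8b* and *Ppargc1a* were called in every setting run. The other called genes of the lists lost the call in at least 1 setting, and *Elovl3* did so only without the filter. When 1 mouse was left out, 10 of these calls were lost without transgenic mouse 1, 4 without transgenic mouse 2, 15 without transgenic mouse 3, and 8, 14 and 11 without wild-type mice 1, 2 and 3.

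The replicate numbers share no stated origin, so they were not taken as pairs. The deviations of same-numbered mice correlated by 0.0129, 0.0344 and 0.0701, and those of differently numbered mice by -0.186 to 0.135. Deviations of 3 mice from their own mean are tied together, so these values cannot show whether any mice were pairs. With the replicate number as a block, 0 clock genes, 1 other clock transcription gene, 1 enzyme or corepressor and 2 output genes were called higher, and 1230 loci were higher and 656 lower. Values near 1 FPKM, such as those of *Per2* and *Fbxl21*, are limited by a depth that is not stated.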
